A study of Mus musculus with 15 samples.

Results

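DNA replication in a dividing cell needs a helicase to open the helix, factors that load it, polymerases, a sliding clamp, a supply of nucleotides and proteins that copy chromatin. The 44 genes of this machinery described here were chosen by a list of gene symbols. The list itself applies no measured value, but it was drawn up with earlier results of these data known. All 44 were found in the deposited count table of 36144 genes, and all 44 were among the 16224 genes with enough counts to test. None was lost to the filter on low counts.

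The study profiled RNA from the stomach of C57BL/6 mice, aged 7 to 8 weeks per the labels, in 15 libraries of 5 groups with 3 replicates each. Normal gastric tissue was compared with tumors of the antrum, the corpus, and the boundary of the greater or of the lesser curvature of the cardia. Every mouse, those that gave the normal tissue included, is labelled with the same alleles: Pou2f3-CreERT, Rb1fl/fl, Trp53fl/fl and LSL-MycT58A. All received tamoxifen by intraperitoneal injection at 50 mg/kg and were sampled 5 weeks after induction. Pou2f3 is a transcription factor of tuft cells, a rare chemosensory epithelial type, and the CreERT allele carries its name; the normal tissue is not wild type. The labels do not say which region of the stomach gave the normal tissue, nor whether same-numbered libraries came from 1 mouse. The p-values therefore measure the spread between these libraries.

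In G1 phase the origin recognition complex, Cdc6 and Cdt1 load the ring of MCM proteins onto DNA, a step called licensing, and geminin blocks it again by binding Cdt1. When S phase starts, the Cdc7 kinase, Cdc45 and the GINS complex turn the ring into a moving helicase. E2F transcription factors activate many of these genes before S phase, and the retinoblastoma protein, the product of Rb1, restrains E2F. In the resting stomach, division is largely limited to progenitors in the isthmus of each gland.

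Library totals ran from 7957165 to 21564972 estimated counts. Levels are given in CPM, counts relative to the library size after TMM scaling, and in TPM where different genes are compared, because TPM corrects for transcript length. The 44 genes together took 0.0667 to 0.0914% of a normal library's counts and 0.144 to 0.476% of a tumor library's, with no overlap. The engineered genes were not a sharp check of the labels. Counts were per gene, the altered parts of these genes were not read separately, and the reason for any overlap was not tested. Rb1 spanned 36.1 to 49.5 CPM in normal libraries and 23.3 to 47.2 CPM in tumor libraries. Trp53 spanned 28.1 to 32.4 CPM in normal libraries and 24 to 70.5 CPM in tumor libraries. Myc ran from 39.1 to 98.4 CPM and from 95.2 to 765 CPM, and no source used here says whether the reference held the transgene. Tissue composition moved with the groups as well. The summed level of 7 smooth muscle markers was 4260 to 6190 CPM in the normals and 165 to 1110 CPM in the tumors. That of 3 chief cell markers, which mark the pepsinogen-secreting cells of gastric glands, was 61000 to 136000 CPM in the normals and 2.16 to 80800 CPM in the tumors. For 4 genes listed as parietal cell markers, Atp4a, Atp4b, Gif and Kcne2, the ranges were 5030 to 9580 CPM and 14.3 to 7410 CPM. In mice Gif is mainly a chief cell product, so this sum is not of parietal cells alone. The 6 squamous markers summed to 4760 CPM in normal replicate 2 against 0.688 and 1.76 CPM in the other normals. The part of these shifts in the results was not tested. In bulk tissue, more dividing cells and more of each RNA per dividing cell cannot be told apart.

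Promoter sequence is shown first, because many of these genes are textbook E2F targets. RefSeq promoter windows on GRCm38.p6, from 250 bases before to 50 bases after a start site, were at hand for 36 of the 44 genes, some of which have more than 1 window. They were searched on both strands for 4 spellings of the E2F site, TTTCCCGC, TTTCGCGC, TTTGCCGC and TTTGGCGC, whose matches may overlap one another. In each sequence, read 5′ to 3′ on the strand of the gene, capitals mark the matches. Mcm6, which encodes an MCM ring subunit, is on the minus strand and its window is chr1:128359656-128359955. It held 3 matches, and the first 2 overlap.
Mcm6: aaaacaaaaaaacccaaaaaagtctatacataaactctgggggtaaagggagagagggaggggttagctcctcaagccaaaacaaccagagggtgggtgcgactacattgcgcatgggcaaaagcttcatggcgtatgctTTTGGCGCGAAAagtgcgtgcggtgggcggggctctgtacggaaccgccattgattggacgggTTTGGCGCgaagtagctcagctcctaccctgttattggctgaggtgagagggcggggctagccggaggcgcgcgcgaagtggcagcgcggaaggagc
Mcm2, another ring subunit, is shown as a gene with no match (minus strand, chr6:88898731-88899030).
Mcm2: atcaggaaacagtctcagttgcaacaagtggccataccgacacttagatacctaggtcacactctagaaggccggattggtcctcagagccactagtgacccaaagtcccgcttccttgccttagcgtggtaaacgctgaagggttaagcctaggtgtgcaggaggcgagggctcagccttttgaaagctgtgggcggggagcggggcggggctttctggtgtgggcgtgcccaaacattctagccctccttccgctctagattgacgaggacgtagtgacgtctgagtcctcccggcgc
Gins3, a subunit of the GINS complex, is shown because it has a match and yet the smallest change in the tumors of all 44 genes (plus strand, chr8:95633309-95633608).
Gins3: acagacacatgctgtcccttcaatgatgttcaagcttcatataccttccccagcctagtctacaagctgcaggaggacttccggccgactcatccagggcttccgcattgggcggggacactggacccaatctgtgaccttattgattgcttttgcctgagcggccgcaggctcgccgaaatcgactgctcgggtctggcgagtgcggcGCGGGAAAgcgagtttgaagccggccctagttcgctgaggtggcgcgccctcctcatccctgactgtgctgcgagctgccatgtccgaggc

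Shorter stretches around the match are given for a gene each of the ring, origin binding, licensing, polymerase and chromatin groups. Mcm5 (plus strand, chr8:75109340-75109383) holds a pair of matches that overlap on opposite strands. Orc1 (plus strand, chr4:108579411-108579450), Cdc6 (plus strand, chr11:98907997-98908036), Pola1 (minus strand, chrX:93632270-93632309) and Uhrf1 (plus strand, chr17:56304112-56304151) hold 1 match each.
Mcm5: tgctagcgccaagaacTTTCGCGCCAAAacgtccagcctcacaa
Orc1: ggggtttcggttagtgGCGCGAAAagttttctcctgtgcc
Cdc6: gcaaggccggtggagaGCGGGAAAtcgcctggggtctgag
Pola1: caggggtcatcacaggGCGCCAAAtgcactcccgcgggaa
Uhrf1: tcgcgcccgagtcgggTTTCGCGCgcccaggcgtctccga

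At least 1 E2F spelling was present in a window of 15 of the 36 genes (41.7%), against 704 of the 27025 genes in the promoter table (2.6%). There were 22 matches in all, of which 13 begin before the start site, and 6 genes had more than 1. The 15 genes were Mcm3, Mcm5, Mcm6, Mcm7, Gins3, Cdc6, Cdt1, Orc1, Rfc3, Pola1, Pold1, Pole2, Lig1, Uhrf1 and Dnmt1. The CCAAT box was present in a window of 63.9% of the 36 genes and of 41.1% of all genes in the table. The E-box CACGTG was present in 19.4% and 8.09%, and the word TTTGAA, the core of the CHR element, in 16.7% and 20.2%. The words were searched on both strands, and these shares of genes are descriptions. The median log2 fold change in all tumors against normal was 1.71 for the 15 genes with an E2F spelling and 1.58 for the 21 without, while the 8 with no window in the table had 1.33. A match says only that the letters are there.

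The machinery was higher in tumors almost throughout. In the comparison of all 12 tumors with the 3 normals, 42 of the 44 genes rose and 0 fell at an adjusted p under 0.05 by edgeR's quasi-likelihood test with Benjamini-Hochberg adjustment over all genes. Among all genes tested, 16.2% rose and 15.7% fell. The median log2 fold change of the 44 was 1.60, or 3.03-fold, beside a median of -0.04 over all genes. In 39 of the 44 genes every tumor library lay above every normal library, which was so for 9.58% of all genes. The 5 exceptions were Gins1, Gins3, Gmnn, Rfc1 and Rfc5. The largest changes were those of Pole, Cdt1 and Cdc7, and the smallest those of Gins3, Gmnn and Prim2. All adjusted p-values given for single genes are from this test, and values in a series follow replicates 1, 2 and 3 of each group.

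**Figure D1:**
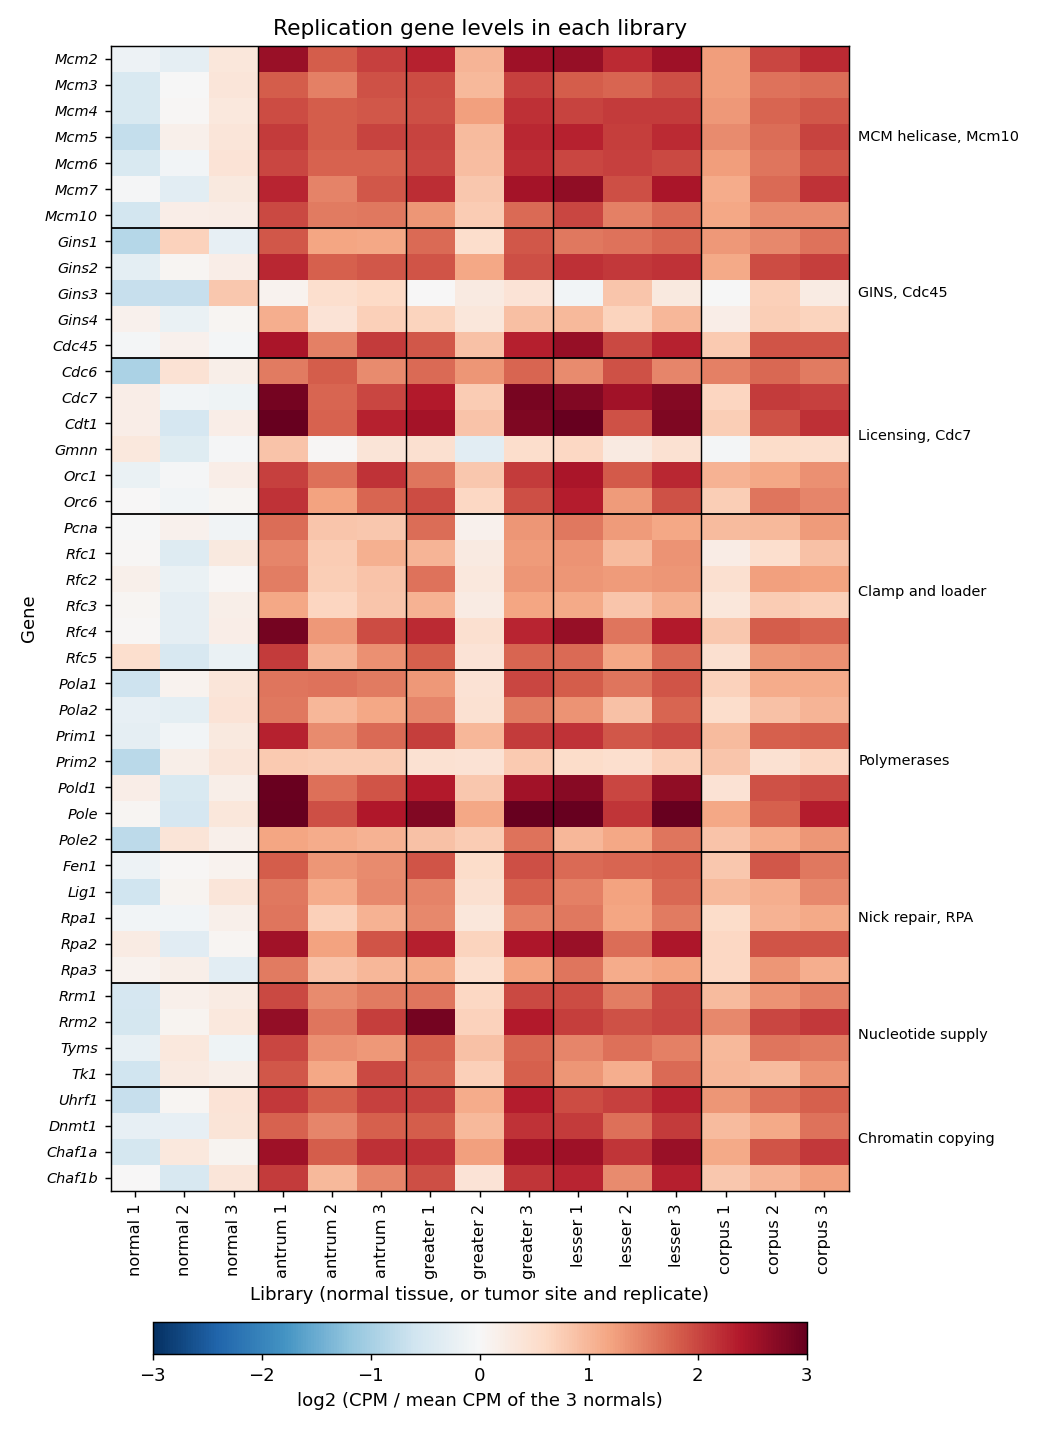
Level of each of the 44 genes (rows, grouped by role) in each of the 15 libraries (columns), as log2 of CPM over the mean CPM of the 3 normals; red is higher and blue lower, and the colour scale ends at 3. The tumor columns are red in nearly every row, paler in greater curvature replicate 2 and corpus replicate 1, and the rows of Gins3 and Gmnn are pale throughout.

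**Figure D2:**
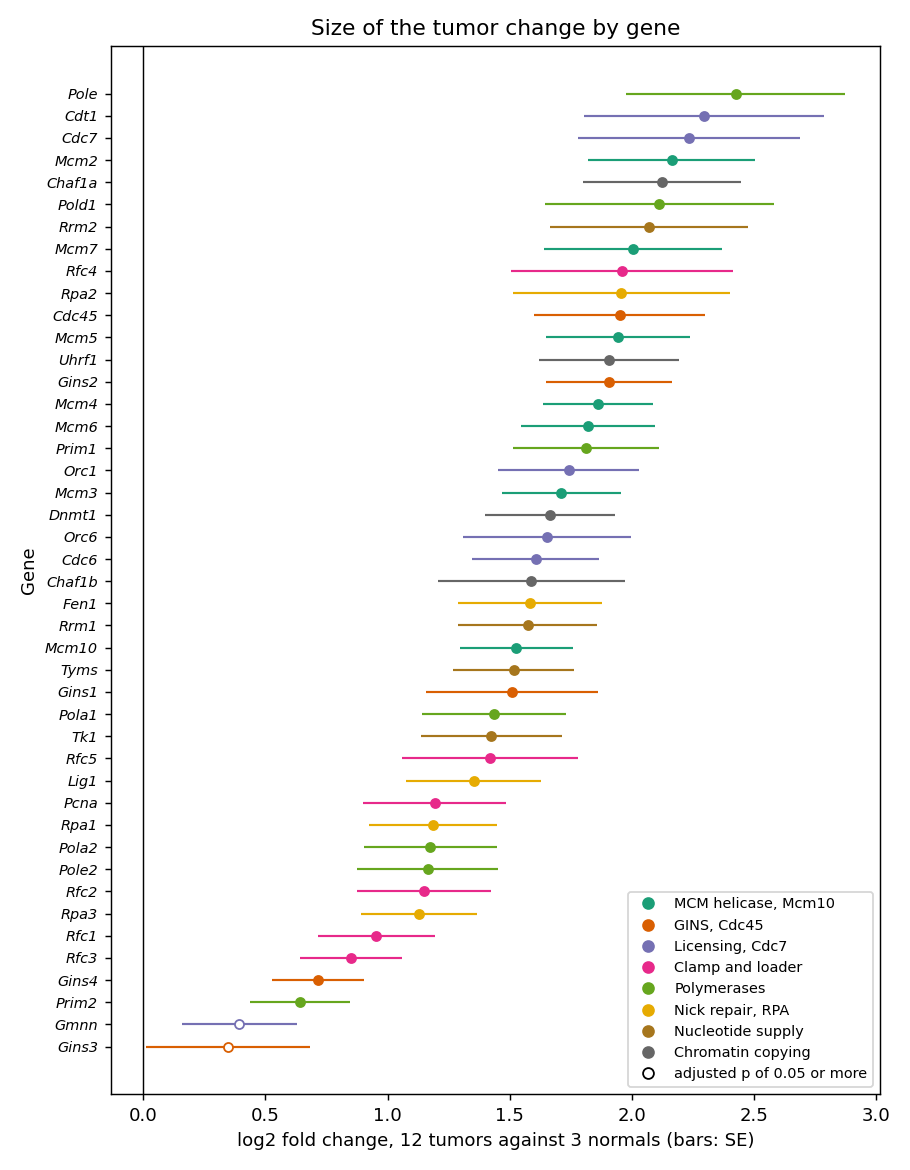
Log2 fold change of each gene in the 12 tumors against the 3 normals (points), ordered by size and coloured by role. Bars are the SE derived from the F statistic, and open points have an adjusted p of 0.05 or more. Pole is at the top at 2.43, and the open points, Gmnn and Gins3, are at the bottom at 0.39 and 0.35.

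The MCM ring, which unwinds the parental strands ahead of the fork, rose in full. All 6 subunits and Mcm10, which helps to start the helicase, were called higher, with a median log2 fold change of 1.86. Mcm2 stood at 25.1, 23.1 and 35.4 CPM in the normals, and at 169, 98.4 and 115 in antrum tumors, 138, 56.8 and 164 in greater curvature tumors, 170.4, 132 and 164 in lesser curvature tumors, and 66.6, 111 and 132 in corpus tumors. Every tumor exceeded every normal, and the lowest tumor, greater curvature replicate 2, was still above the highest normal. The log2 fold change was 2.16 (SE 0.34, adjusted p = 0.00242), or 4.48-fold. Mcm6 stood at 43.8, 56.4 and 79.3 CPM in the normals, and at 242, 203 and 203 in antrum tumors, 240.2, 114 and 277 in greater curvature tumors, 241, 247 and 235 in lesser curvature tumors, and 142, 182 and 221 in corpus tumors. The groups did not overlap here either, and the log2 fold change was 1.82 (SE 0.27, adjusted p = 0.00202). Mcm10 stood at 10.7, 17.97 and 18.04 CPM in the normals, and at 61.1, 45.9 and 46.7 in antrum tumors, 39.2, 26.5 and 50.4 in greater curvature tumors, 62.1, 44.1 and 50.3 in lesser curvature tumors, and 34.7, 41.3 and 41.4 in corpus tumors. Its lowest tumor was again greater curvature replicate 2, above all normals, and its log2 fold change was 1.53 (SE 0.23, adjusted p = 0.00207). Of the other ring subunits, Mcm7 changed by 2.01 on the log2 scale, Mcm5 by 1.95, Mcm4 by 1.86 and Mcm3 by 1.71. Mcm4 had the smallest adjusted p of the 44 genes, 0.000788.

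The ring holds its subunits in equal number, but their RNA levels per length were unequal. In TPM (mean ± SD, n = 3 normals and n = 12 tumors), normals had 22.1 ± 5.47 and tumors 129 ± 60.5 of Mcm7, and 20.4 ± 6.55 and 108 ± 33.7 of Mcm6. Mcm4 went from 7.53 ± 1.94 to 41.3 ± 12.7, and it was the lowest of the 6 in every library except normal replicate 2, where Mcm2 was lowest. The highest was Mcm7 or Mcm6 in all 15 libraries. The highest subunit stood 2.31 to 4.44 times above the lowest within a library. Exons of Mcm7 (chr5:138164583-138172111) overlap those of Ap4m1 and Cops6 on the opposite strand, and no source used here says whether the counting used strand.

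Cdc45 and GINS, which join the ring to form the active helicase, changed unevenly. Cdc45, Gins1, Gins2 and Gins4 rose, and Gins3 did not pass the test. Cdc45 stood at 7.35, 8.37 and 7.34 CPM in the normals, and at 41.7, 21.9 and 32.8 in antrum tumors, 28.1, 14.1 and 38.8 in greater curvature tumors, 46.97, 30.3 and 37.9 in lesser curvature tumors, and 13.3, 28.4 and 28.6 in corpus tumors. Its normals lay within a narrow band under all tumors, of which corpus replicate 1 was lowest, and the log2 fold change was 1.95 (SE 0.35, adjusted p = 0.00371). Gins1 stood at 3.67, 10.6 and 5.58 CPM in the normals, and at 24.3, 15.2 and 14.7 in antrum tumors, 21.5, 9.53 and 24.3 in greater curvature tumors, 20, 20.4 and 22.3 in lesser curvature tumors, and 16.4, 17.95 and 20.4 in corpus tumors. Normal replicate 2 was above greater curvature replicate 2, so the groups overlapped, and the log2 fold change was 1.51 (SE 0.35, adjusted p = 0.00965). Gins2 changed by 1.91 and Gins4 by 0.71 on the log2 scale, the former called at every site. Gins2 exons (chr8:120581266-120589075) share 2758 bases with exons of Gse1 on the opposite strand.

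Gins3 stood at 3.89, 3.93 and 11.2 CPM in the normals, and at 6.76, 8.92 and 9.58 in antrum tumors, 6.34, 7.64 and 8.43 in greater curvature tumors, 6.00, 11.3 and 7.69 in lesser curvature tumors, and 6.25, 10.3 and 7.52 in corpus tumors. Normal replicate 3 was above all tumors but lesser curvature replicate 2, and the other normals were below all of them. The log2 fold change was 0.35 (SE 0.34, adjusted p = 0.426). Without normal replicate 3 it was 1.04 (adjusted p = 0.0459), so 1 library decided this call. In TPM it was called only with a pseudocount of 0.1 and not with 1. In TPM, Gins3 was also the least abundant of the 44 in the tumors, at 5.24 ± 1.37 (SD, n = 12).

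Among the licensing factors, the loaders rose and their inhibitor did not pass the test. Cdt1, Cdc6, Orc1, Orc6 and the Cdc7 kinase were called higher, and the median log2 fold change of the 6 genes with Gmnn was 1.70. Cdt1 stood at 15.4, 9.51 and 15.6 CPM in the normals, and at 111, 46.2 and 66.5 in antrum tumors, 75.7, 24.5 and 93.8 in greater curvature tumors, 124, 51.02 and 93.9 in lesser curvature tumors, and 22.7, 50.4 and 62.1 in corpus tumors. Corpus replicate 1 and greater curvature replicate 2 were the lowest tumors, yet above all normals. The log2 fold change was 2.30 (SE 0.49, adjusted p = 0.00698), or 4.92-fold. Cdc6, the ATPase that brings the ring to origins, stood at 4.34, 11.3 and 9.33 CPM in the normals, and at 24.5, 29.1 and 22.2 in antrum tumors, 26.97, 20.8 and 28.1 in greater curvature tumors, 22.2, 31.3 and 22.7 in lesser curvature tumors, and 23.9, 27.2 and 24.5 in corpus tumors. Its tumors were among the most even of the set, with the highest 1.51 times the lowest, and the log2 fold change was 1.61 (SE 0.26, adjusted p = 0.00261). Cdc7, which phosphorylates the loaded ring, stood at 10.5, 8.64 and 8.33 CPM in the normals, and at 67.4, 30.7 and 36.6 in antrum tumors, 47.7, 15.4 and 65.7 in greater curvature tumors, 63.3, 52.4 and 61.7 in lesser curvature tumors, and 14.4, 39.3 and 38.1 in corpus tumors. Its groups did not overlap, and its log2 fold change of 2.24 (SE 0.45, adjusted p = 0.00586) was the third largest of the 44.

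Orc1, the largest subunit of the origin recognition complex, stood at 2.28, 2.53 and 2.98 CPM in the normals, and at 10.8, 8.22 and 11.7 in antrum tumors, 7.94, 4.54 and 11.1 in greater curvature tumors, 14.3, 9.29 and 12.4 in lesser curvature tumors, and 5.38, 5.78 and 6.70 in corpus tumors. The lesser curvature and antrum tumors were all higher than the corpus tumors, and none overlapped the normals. The log2 fold change was 1.74 (SE 0.29, adjusted p = 0.00271). Orc6, the smallest subunit, stood at 12.7, 11.9 and 13.1 CPM in the normals, and at 56.6, 28.8 and 42.2 in antrum tumors, 48.6, 19.4 and 47.8 in greater curvature tumors, 64.02, 30.4 and 47.1 in lesser curvature tumors, and 21.03, 38.3 and 34.7 in corpus tumors. All its tumors were above all its normals, with a log2 fold change of 1.65 (SE 0.34, adjusted p = 0.00620). Of the remaining subunits, which were not in the set, Orc2 rose by 1.38, while Orc3, Orc4 and Orc5 did not pass the test, at 0.39, 0.36 and 0.38.

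Gmnn, which encodes geminin, stood at 25.7, 16.1 and 20.3 CPM in the normals, and at 37.4, 21.2 and 27.3 in antrum tumors, 28.9, 16.7 and 30.1 in greater curvature tumors, 31.9, 24.8 and 28.5 in lesser curvature tumors, and 19.9, 30.2 and 29.9 in corpus tumors. Normal replicate 1 lay above 4 tumors, and greater curvature replicate 2 lay below 2 of the 3 normals. The log2 fold change was 0.39 (SE 0.23, adjusted p = 0.202). In TPM plus 1, where the median of all genes was itself shifted by 0.43, it was 0.92 and called (limma, adjusted p = 0.0188). The ratio of Cdt1 to Gmnn counts within a library does not depend on that scaling. It was 0.601, 0.594 and 0.767 in the normals. In the tumors it was 2.98, 2.18 and 2.44 (antrum), 2.62, 1.47 and 3.12 (greater curvature), 3.88, 2.05 and 3.29 (lesser curvature), and 1.14, 1.67 and 2.08 (corpus). The ratio was higher in all 12 tumors than in any normal, and lowest among the tumors in corpus replicate 1. The mean log2 ratio was -0.62 ± 0.21 (SD, n = 3) in the normals and 1.19 ± 0.52 (SD, n = 12) in the tumors. The difference of 1.81 gave a two-sided exact permutation p of 0.0022, the smallest that 455 arrangements allow, and 0.0055 after Benjamini-Hochberg adjustment over the 5 ratios tested. All 5 ratios were chosen with earlier results of these data known. They use the same counts as the single-gene tests, so their p-values are not separate support.

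The clamp and the 5 loader subunits all rose, and their median log2 fold change of 1.17 was the smallest of the 8 role groups. Pcna, the ring that holds polymerases on DNA, was the most abundant of the 44 per length, at 60.3 ± 4.15 TPM in the normals and 215 ± 67.7 in the tumors (SD, n = 3 and 12). It stood at 75.1, 82.2 and 69.96 CPM in the normals, and at 242, 134 and 133 in antrum tumors, 243, 83.2 and 188 in greater curvature tumors, 227, 183 and 169.7 in lesser curvature tumors, and 146, 149.5 and 184 in corpus tumors. Greater curvature replicate 2 was barely above the highest normal. The log2 fold change was 1.19 (SE 0.29, adjusted p = 0.0115), which was not called without normal replicate 3 (adjusted p = 0.0547). Pcna also has processed copies in the genome, and the copy Pcna-ps2 had 0 to 518 counts by library, so reads may have been divided between them.

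Rfc1, the large subunit of the loader, stood at 46.7, 34.6 and 55.6 CPM in the normals, and at 125, 76.7 and 96.1 in antrum tumors, 92.7, 55.3 and 111 in greater curvature tumors, 116, 87.7 and 115 in lesser curvature tumors, and 53.4, 64.5 and 83.4 in corpus tumors. Normal replicate 3 lay above greater curvature replicate 2 and corpus replicate 1, and the log2 fold change was 0.95 (SE 0.24, adjusted p = 0.0130). Rfc4, a small subunit, stood at 8.74, 7.07 and 9.71 CPM in the normals, and at 62.5, 20.8 and 33.2 in antrum tumors, 40.3, 11.8 and 41.3 in greater curvature tumors, 52.4, 25.9 and 44.5 in lesser curvature tumors, and 15.02, 29.7 and 28.4 in corpus tumors. Greater curvature replicate 2 was the lowest tumor and antrum replicate 1 the highest, all tumors were above the normals, and the log2 fold change was 1.96 (SE 0.46, adjusted p = 0.00944). The other small subunits changed by 1.42 (Rfc5), 1.15 (Rfc2) and 0.85 (Rfc3) on the log2 scale. Without normal replicate 2, the calls of Rfc1, Rfc2, Rfc3 and Rfc5 were lost, with adjusted p from 0.0508 to 0.0698. Rfc2, Rfc4 and Rfc5 share exon bases with Lat2, Eif4a2 and Wsb2 on the opposite strand.

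All 7 polymerase and primase genes rose, with a median log2 fold change of 1.44. Pole, the catalytic subunit of polymerase epsilon, which copies the leading strand, stood at 11.98, 8.11 and 14.6 CPM in the normals, and at 94.4, 43.99 and 60.95 in antrum tumors, 79.8, 25.9 and 92.7 in greater curvature tumors, 98.9, 51.02 and 94.7 in lesser curvature tumors, and 25.9, 40.3 and 59.3 in corpus tumors. The lowest tumors, corpus replicate 1 and greater curvature replicate 2, were near 26 CPM against 14.6 in the highest normal. Its log2 fold change of 2.43 (SE 0.45, adjusted p = 0.00417), or 5.38-fold, was the largest of the 44. Pole2, the second subunit of the same enzyme, stood at 2.65, 6.02 and 5.05 CPM in the normals, and at 10.3, 9.96 and 9.47 in antrum tumors, 8.36, 7.80 and 14.2 in greater curvature tumors, 9.14, 10.3 and 13.99 in lesser curvature tumors, and 8.22, 9.82 and 11.4 in corpus tumors. The groups did not overlap, and the log2 fold change was 1.16 (SE 0.29, adjusted p = 0.0118). Leaving out normal replicate 1 cost the call (adjusted p = 0.0506). Pold1, the catalytic subunit of polymerase delta, which works mainly on the lagging strand, stood at 12.3, 7.76 and 12.1 CPM in the normals, and at 83.3, 33.5 and 39.5 in antrum tumors, 55.7, 18.8 and 61.3 in greater curvature tumors, 71.2, 42.9 and 67.8 in lesser curvature tumors, and 14.4, 40.1 and 42.4 in corpus tumors. Its tumors were the most spread of the set, the highest 5.79 times the lowest, and the log2 fold change was 2.11 (SE 0.47, adjusted p = 0.00797).

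Pold1 and Pole did not rise in step in all libraries. The ratio of Pold1 to Pole counts was 1.02, 0.957 and 0.828 in the normals. In the tumors it was 0.883, 0.760 and 0.648 (antrum), 0.699, 0.727 and 0.662 (greater curvature), 0.720, 0.840 and 0.716 (lesser curvature), and 0.557, 0.993 and 0.715 (corpus). In 9 of 12 tumors it was below all normals. The mean log2 ratio was lower in the tumors by 0.34, from -0.10 ± 0.16 (SD, n = 3) to -0.44 ± 0.22 (SD, n = 12). The two-sided exact permutation p was 0.0286, and 0.0476 after adjustment over the 5 ratios. The adjusted p was above 0.05 in 10 of the 15 fits with 1 library left out, in TPM, and without greater curvature replicate 2 and corpus replicate 1 together.

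Polymerase alpha and primase, which lay down the primers, rose as well. Pola1, the catalytic subunit, stood at 8.74, 14.4 and 17.1 CPM in the normals, and at 41, 41.4 and 39.5 in antrum tumors, 33.3, 18.2 and 54.2 in greater curvature tumors, 47.6, 40.6 and 49.3 in lesser curvature tumors, and 21.7, 29 and 29.1 in corpus tumors. Greater curvature replicate 2 was only just above normal replicate 3, and the log2 fold change was 1.44 (SE 0.29, adjusted p = 0.00599). Prim1, the catalytic subunit of primase, stood at 14.1, 15.9 and 20.6 CPM in the normals, and at 82.98, 44.8 and 55.2 in antrum tumors, 71.6, 33.8 and 72.6 in greater curvature tumors, 76.01, 61.3 and 66.7 in lesser curvature tumors, and 32.4, 58.4 and 59.3 in corpus tumors. The groups were well apart, and the log2 fold change was 1.81 (SE 0.30, adjusted p = 0.00271). Pola2 changed by 1.18. Prim2, the large primase subunit, had the smallest change among the called genes, 0.64 (SE 0.20, adjusted p = 0.0322). It stood at 11.6, 22.9 and 25.99 CPM in the normals and between 27.5 and 35.7 CPM in the tumors, the highest being corpus replicate 1. The Prim2 call was lost without normal replicate 1, normal replicate 2 or lesser curvature replicate 3, with adjusted p from 0.0520 to 0.0958, and without normal replicate 1 the log2 fold change was 0.36.

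Fen1, Lig1 and the 3 subunits of RPA, which covers single-stranded DNA, were all called higher, with a median log2 fold change of 1.35. Fen1, the nuclease that trims Okazaki fragments, stood at 16.9, 19.1 and 20.1 CPM in the normals, and at 65.5, 46.6 and 50.4 in antrum tumors, 68.7, 27.4 and 70.97 in greater curvature tumors, 60.5, 62.3 and 64.4 in lesser curvature tumors, and 32.97, 68.5 and 56.01 in corpus tumors. The groups did not overlap, and the log2 fold change was 1.58 (SE 0.29, adjusted p = 0.00421). Lig1, the ligase that seals the fragments, stood at 20.9, 33.1 and 40.4 CPM in the normals, and at 93.98, 68.2 and 86 in antrum tumors, 88.1, 43.7 and 107 in greater curvature tumors, 90.2, 72.7 and 104 in lesser curvature tumors, and 61.7, 66.6 and 85.9 in corpus tumors. Greater curvature replicate 2 was the tumor nearest to the normals, and the log2 fold change was 1.35 (SE 0.28, adjusted p = 0.00598). Rpa1 stood at 48.9, 48.2 and 57.03 CPM in the normals, and at 155, 84.9 and 107 in antrum tumors, 140.2, 65.1 and 148 in greater curvature tumors, 153, 116 and 151 in lesser curvature tumors, and 75.1, 106 and 113 in corpus tumors. Rpa2 stood at 13.6, 9.07 and 11.9 CPM in the normals, and at 66.4, 26.8 and 42.7 in antrum tumors, 58.3, 18.4 and 61.8 in greater curvature tumors, 69.3, 36.7 and 62.04 in lesser curvature tumors, and 17.8, 42.9 and 42.8 in corpus tumors. Both were above all normals in every tumor, Rpa2 by a log2 fold change of 1.96 (SE 0.44, adjusted p = 0.00851) and Rpa1 by 1.19 (SE 0.26, adjusted p = 0.00782). The smallest subunit, Rpa3, changed by 1.13. Fen1 exons share 1909 bases with an antisense transcript, Gm10143, and Lig1 exons share 247 bases with Zswim9.

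All 4 genes of nucleotide supply rose, with a median log2 fold change of 1.55. Ribonucleotide reductase makes deoxyribonucleotides from a large subunit, Rrm1, and a small subunit, either Rrm2 in S phase or Rrm2b, a p53 target, outside it. Rrm1 stood at 42.3, 66.6 and 71.6 CPM in the normals, and at 238, 159.9 and 177 in antrum tumors, 183, 93.03 and 237 in greater curvature tumors, 235, 175 and 236 in lesser curvature tumors, and 116, 152 and 171 in corpus tumors. Rrm2 stood at 17.6, 27.04 and 31.96 CPM in the normals, and at 159.6, 78.1 and 108 in antrum tumors, 186, 41.2 and 133 in greater curvature tumors, 108, 96.01 and 102 in lesser curvature tumors, and 69.5, 102 and 111 in corpus tumors. Greater curvature replicate 1 was the highest library for Rrm2 and replicate 2 of the same site the lowest tumor, still above the normals. The log2 fold changes were 1.57 (SE 0.28, adjusted p = 0.00378) for Rrm1 and 2.07 (SE 0.41, adjusted p = 0.00510) for Rrm2. Rrm2b, which was not in the set, had a log2 fold change of -0.64 and was called lower (SE 0.13, adjusted p = 0.00630), from 21.1, 26.5 and 29.1 CPM (lowest, median and highest normal) to 14.1, 16.3 and 19.4 CPM (lowest, median and highest tumor).

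The ratio of Rrm2 to Rrm2b counts was 0.607, 1.28 and 1.21 in the normals. It was 9.46, 4.98 and 5.82 in antrum tumors, 11.3, 2.62 and 8.15 in greater curvature tumors, 5.55, 6.34 and 6.79 in lesser curvature tumors, and 4.06, 6.25 and 7.88 in corpus tumors. All 12 tumors were above all normals, by 2.66 on the log2 scale in the mean, with a two-sided exact permutation p of 0.0022, the smallest possible, and an adjusted p of 0.0055. The ratio of Rrm2 to Rrm1 was 0.45 higher in the tumors on the log2 scale and above all normals in 10 of 12 tumors, with an exact permutation p of 0.044 and an adjusted p of 0.055, which missed the threshold. Without greater curvature replicate 1 the adjusted p was 0.0366 with a difference of 0.38. The fifth ratio, Orc1 to Orc2, was 0.39 higher with an exact permutation p and an adjusted p of 0.139, and it was lower by 0.29 in TPM plus 1.

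**Figure D3:**
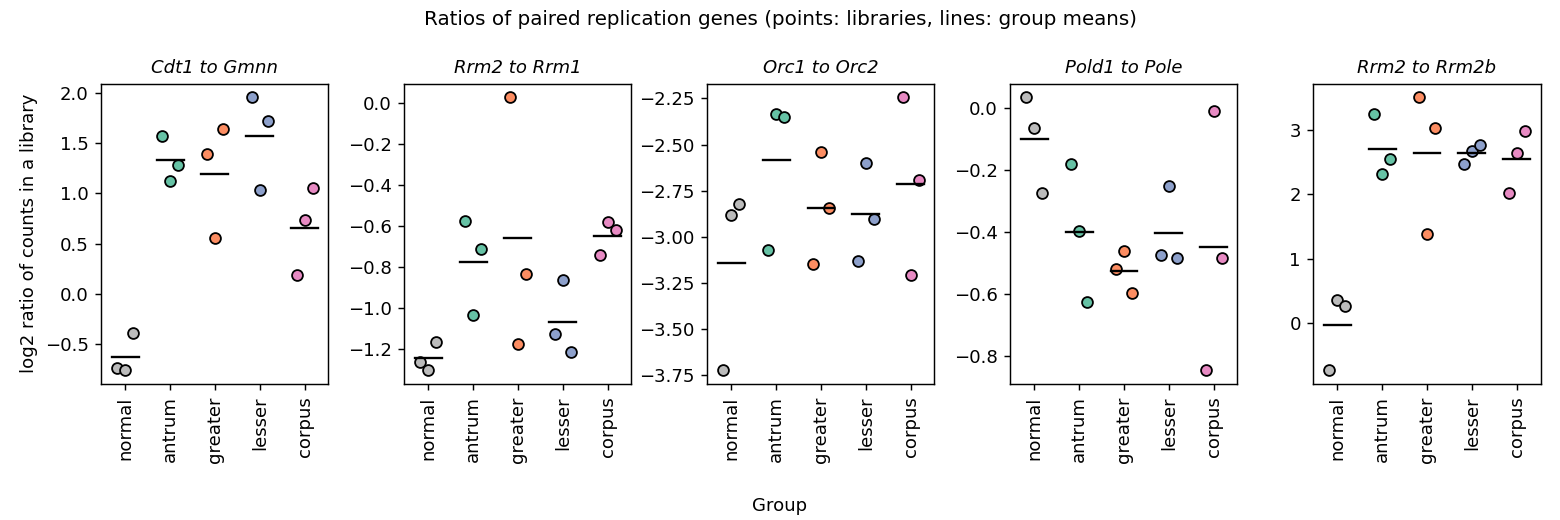
Log2 ratio of the counts of a pair of genes within each library (points) and its group mean (lines), for the normals and the 4 tumor sites; each panel has its own vertical axis. Cdt1 to Gmnn and Rrm2 to Rrm2b separate all 12 tumors from the 3 normals, and the other pairs overlap between the groups.

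Tyms and Tk1, which supply thymidine nucleotides by synthesis and by salvage, were both called higher. Tyms stood at 16.5, 23.9 and 17.5 CPM in the normals, and at 78, 49.9 and 47.5 in antrum tumors, 66.9, 35.4 and 64.4 in greater curvature tumors, 52.9, 60.5 and 54.7 in lesser curvature tumors, and 37.7, 58.7 and 56.7 in corpus tumors. Tk1 stood at 11.5, 21.1 and 19.8 CPM in the normals, and at 63.6, 38.9 and 68.99 in antrum tumors, 58.1, 28.5 and 60.5 in greater curvature tumors, 44.03, 36.9 and 57.1 in lesser curvature tumors, and 35.1, 33.5 and 44.3 in corpus tumors. Neither overlapped between tumors and normals, and greater curvature replicate 2 was the lowest tumor of both. The log2 fold changes were 1.52 (SE 0.25, adjusted p = 0.00268) for Tyms and 1.43 (SE 0.29, adjusted p = 0.00581) for Tk1. The mitochondrial thymidine kinase Tk2, not in the set, was called lower, at -0.66 (SE 0.15, adjusted p = 0.00877).

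All 4 genes that copy chromatin behind the fork rose, with a median log2 fold change of 1.79. Uhrf1, which recognises half-methylated DNA and brings in Dnmt1, stood at 15.1, 25.2 and 32.4 CPM in the normals, and at 106, 83.4 and 101 in antrum tumors, 99.3, 52.1 and 124 in greater curvature tumors, 94.3, 100.1 and 120.1 in lesser curvature tumors, and 60.6, 75.7 and 83.8 in corpus tumors. Dnmt1, the maintenance methyltransferase, stood at 51.7, 51.2 and 80.1 CPM in the normals, and at 208, 169 and 212 in antrum tumors, 216, 121 and 276 in greater curvature tumors, 262, 193 and 262 in lesser curvature tumors, and 118, 135 and 188 in corpus tumors. Both were higher in every tumor than in any normal, by 1.91 (SE 0.29, adjusted p = 0.00198) for Uhrf1 and 1.67 (SE 0.27, adjusted p = 0.00252) for Dnmt1. Chaf1a, the large subunit of the histone chaperone CAF-1, stood at 9.18, 16.7 and 14.1 CPM in the normals, and at 77.4, 46.8 and 61.3 in antrum tumors, 61.3, 31.2 and 74.9 in greater curvature tumors, 77.8, 58.97 and 80.7 in lesser curvature tumors, and 29.3, 48.97 and 58.3 in corpus tumors. Corpus replicate 1 was its lowest tumor, above all normals, and the log2 fold change was 2.12 (SE 0.32, adjusted p = 0.00208). Exons of Chaf1a (chr17:56040416-56068026) share 4648 bases with exons of Ubxn6 on the opposite strand, the longest such overlap of the set. Its partner Chaf1b changed by 1.59, a call lost without normal replicate 2 (adjusted p = 0.0547).

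Each tumor site was then set against the normals. These comparisons share the same 3 normals, so they are not independent of each other. In antrum tumors 41 of the 44 genes rose (against 9.59% of all genes), with a median log2 fold change of 1.70, and in lesser curvature tumors 41 rose (against 18.2% of all genes) with a median of 1.84. In greater curvature tumors 36 rose (against 6.5% of all genes) with a median of 1.60, and in corpus tumors 17 rose (against 2.35% of all genes) with a median of 1.37. None of the 44 was called lower at any site, where 5.08% (antrum), 2.76% (greater curvature), 15.3% (lesser curvature) and 1.19% (corpus) of all genes were. Gins3 and Gmnn passed the test at no site.

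Every tumor library of a site lay above every normal in 42 genes for the antrum (21.9% of all genes), 42 for the lesser curvature (27.4%), 39 for the greater curvature (15.2%) and 40 for the corpus (17.6%). Pole had the largest log2 fold change of the 44 at 3 sites, the antrum at 2.52 (SE 0.50, adjusted p = 0.0145), the greater curvature at 2.51 (SE 0.50, adjusted p = 0.0187) and the lesser curvature at 2.82 (SE 0.51, adjusted p = 0.00478). At the corpus it was 1.85 (SE 0.49, adjusted p = 0.0584) and not called, and Mcm2 had the largest value, 1.89 (SE 0.38, adjusted p = 0.0306). Prim2 did not pass at any single site, with log2 fold changes of 0.77, 0.57, 0.59 and 0.64 (in the order antrum, greater curvature, lesser curvature, corpus).

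The 17 genes called at the corpus were the 6 ring subunits with Mcm10, Gins2, Cdc45, Cdc6, Prim1, Fen1, Rrm2, Tyms, Uhrf1, Dnmt1 and Chaf1a. None of the clamp and loader genes was among them, with log2 fold changes from 0.56 (Rfc1) to 1.52 (Rfc4). At the greater curvature the genes not called, besides Gins3, Gmnn and Prim2, were Gins4, Pcna, Rfc1, Rfc5 and Pole2, with adjusted p from 0.0512 to 0.0772. The counts for the corpus and the greater curvature turned on single libraries. Leaving out 1 library at a time gave 0 to 33 calls at the corpus, 0 to 41 at the greater curvature, 18 to 41 at the antrum and 38 to 41 at the lesser curvature. For these fits the number of all genes called at a site was not recorded. At the corpus, the count was 0 without normal replicate 1 and 1 without normal replicate 3. It was 0 without corpus replicate 2 or corpus replicate 3, and 33 without greater curvature replicate 2. At the greater curvature it was 0 without normal replicate 3, 1 without greater curvature replicate 3 and 3 without greater curvature replicate 1. At the antrum the lowest count came without antrum replicate 1, and it was 19 without normal replicate 1 or 3.

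Greater curvature replicate 2 and corpus replicate 1 had the lowest levels of the set among the tumors. The median over the 44 genes of log2 CPM over the normal mean was 0.70 in the former and 0.89 in the latter, against 1.39 to 1.98 in the other 10 tumors. Greater curvature replicate 2 was among the lowest 2 of 12 tumors for 43 genes, and corpus replicate 1 for 39. The same libraries had the most chief cell marker RNA of the tumors, 44300 and 80800 CPM against 2.16 to 20100 CPM in the other 10. Their sums of the parietal list, which includes Gif, were 3220 and 7410 CPM, against 14.3 to 2610 CPM in the other 10. Their pit and neck mucous marker sums were 66600 and 89500 CPM, against 132 to 61900 CPM in the other 10. Their smooth muscle sums, 612 and 381 CPM, lay inside the tumor range of 165 to 1110 CPM. Fibroblast markers summed to 4230 CPM, the highest tumor, and 907 CPM. Neuroendocrine markers summed to 210 CPM, the lowest tumor, and 588 CPM. How far the tissue composition of these libraries accounts for their lower values was not tested. Without both libraries, 42 of the 44 genes were still called in all tumors against normal and 36 at the corpus, 41 at the greater curvature. Over all genes, 3605 of 16577 were called higher in all tumors in that fit, against 2628 of 16224 with every library kept. At single sites the number over all genes was not recorded. The libraries left out were those lowest for these same genes, so the higher site counts are not a separate test.

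**Figure D4:**
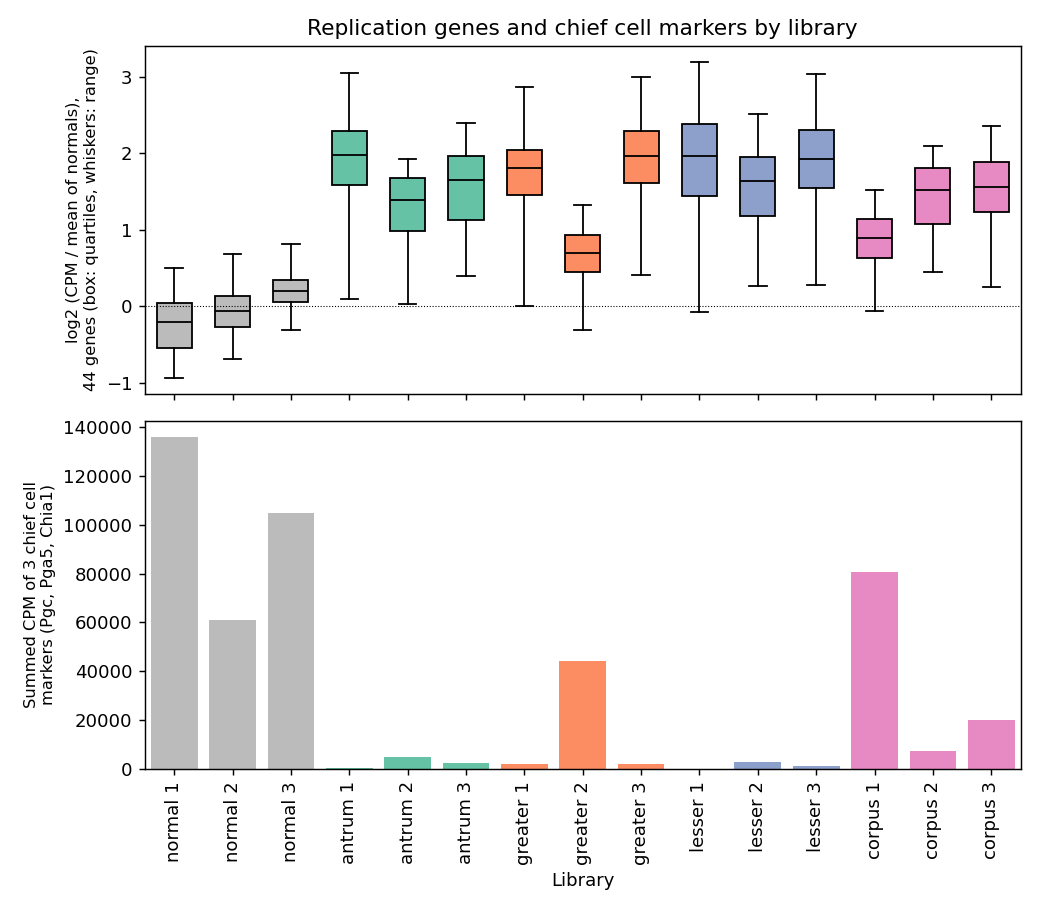
Upper panel, the 44 genes in each library as log2 of CPM over the mean CPM of the normals (line, median; box, quartiles; whiskers, range); lower panel, summed CPM of 3 chief cell markers. The lowest tumor boxes, greater curvature replicate 2 at a median of 0.70 and corpus replicate 1 at 0.89, are those with the tallest chief cell bars among the tumors.

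No gene of the machinery was called as different among the 4 tumor sites in the edgeR F test, and 0% of all genes were. At an unadjusted p under 0.05, 1 of the 44 passed, against 947 of all genes (5.84%). That gene was Orc1 (unadjusted p = 0.0407, adjusted p = 0.827). The DESeq2 likelihood ratio test and limma on TPM also called 0. With each site set against the other 3, 0 of the 44 were called in either direction, where at most 0.00616% of all genes were (lesser curvature, higher). The median log2 difference was 0.28 at the lesser curvature and -0.33 at the corpus, and within 0.08 of 0 at the antrum and greater curvature. At an unadjusted p under 0.05, none of the 44 was higher or lower at the antrum (1.7% and 0.579% of all genes were) or the greater curvature (1.66% and 0.592%). By that threshold, Orc1 was higher at the lesser curvature by 0.62 (6.02% of all genes were higher and 4.84% lower), and at the corpus Orc1 and Rfc1 were lower, at -0.73 and -0.53 (3.24% of all genes were lower and 4.27% higher).

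A further 38 replication genes outside the set were listed by symbol, also with earlier results of these data known. Of these, 26 rose and 2 fell in all tumors against normal, where 16.2% of all genes rose and 15.7% fell. Their median log2 fold change was 1.31, beside -0.04 over all genes. Dut, which keeps uracil out of DNA, changed most, from 14.7, 19.04 and 30.4 CPM (lowest, median and highest normal) to 31.5, 127 and 199 CPM (lowest, median and highest tumor), a log2 fold change of 2.53 (SE 0.55, adjusted p = 0.00765). Ticrr, which helps to fire origins, changed by 2.44 (SE 0.41, adjusted p = 0.00286), and Wdhd1, which links the helicase to polymerase alpha, by 2.41 (SE 0.47, adjusted p = 0.00504). The nuclease and helicase Dna2 changed by 2.40, the fork protection genes Timeless, Clspn and Tipin by 2.35, 2.21 and 1.91, and topoisomerase Top2a by 2.30. Dbf4, the partner of Cdc7, changed by 1.51, and the origin firing factors Topbp1, Mtbp, Recql4 and Donson by 1.40, 1.25, 2.03 and 1.42.

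Other genes of that list that rose included Orc2 and Mcm8, the polymerase subunits Pold2, Pold3 and Pole3, Rnaseh2c, the alternative loader genes Dscc1, Chtf18 and Atad5, and the histone chaperone genes Asf1b, Ssrp1 and Supt16, with log2 fold changes from 0.58 (Pold3) to 2.08 (Chtf18 and Atad5). The 2 that fell were Rrm2b and Tk2. Those that did not pass were Orc3, Orc4, Orc5, Mcm9, Mcmbp, Pold4, Pole4, Rnaseh2a, Rnaseh2b and Top1. The smallest polymerase subunits gave log2 fold changes of -0.70 for Pold4 and 0.26 for Pole4. Of the 31 with a promoter window, 9 (29.0%) held an E2F spelling, against 2.6% of all genes in the promoter table.

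The regulators and the proliferation marker Mki67 were read beside the set. E2f1, an activating E2F, went from 4.74, 5.58 and 7.42 CPM (lowest, median and highest normal) to 10.5, 29.3 and 46.1 CPM (lowest, median and highest tumor), with no overlap and a log2 fold change of 2.24 (SE 0.43, adjusted p = 0.00469). The other activators E2f2 and E2f3 changed by 1.17 and 1.74, and the repressors E2f7 and E2f8 by 2.02 and 1.40, all called. Rbl1, which encodes the RB relative p107, rose by 0.82, and Rb1 itself did not pass the test at -0.22 (adjusted p = 0.372). Myc rose by 2.13 (SE 0.56, adjusted p = 0.0158), with corpus replicate 1 just under normal replicate 1 and the other 11 tumors above all normals. Mki67, a marker of cycling cells, rose by 1.98 (SE 0.38, adjusted p = 0.00480), from 78.3, 90.98 and 167 to 196, 422 and 666 CPM (lowest, median and highest). The groups did not overlap.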

How the data were processed

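RNA from 15 mouse stomach libraries in 5 groups of 3 was analysed, grouped by the sample labels. Per the submitters' processing notes, bcl2fastq 2.19, kallisto 0.44.0, sleuth, DESeq2 and GRCm38.p6 are named, without roles. For the annotation and any use of strand, these notes and the labels name nothing. The deposited count table holds estimated counts as whole numbers. The second deposited table is named for FPKM, but its columns sum to 1e+06, so it was read as TPM made by the authors. The design had assumed whole counts.

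Counts were fitted in edgeR 4.0.16 (R 4.3.3) with filterByExpr at a minimum count of 10, TMM scaling and 1 robust quasi-likelihood model of all 15 libraries by group. P-values were adjusted over all 16224 genes by Benjamini-Hochberg, with a threshold of 0.05. SE is a standard error derived from the test, as the absolute log2 fold change over the square root of the F statistic. Ratios of counts, with 0.5 added, were compared by exact permutation. CPM uses scaled library sizes. The fit was tested on simulated data. That simulation gave every gene the same spread and changed few genes, as many up as down. It therefore cannot test the scaling of these libraries. The alternatives were other scalings, filters, tests (DESeq2 1.42.0, limma 3.58.1 on TPM at 1 or more in 3 samples), a replicate block, the compared groups alone, and libraries left out.

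All 44 genes are named whatever their values, 31 of them with every library's value. The genes, the other lists, the ratios and the E2F spellings were chosen with earlier results of these data known. Promoter windows are RefSeq's on GRCm38.p6, gene coordinates RefSeq's, and exon overlaps GENCODE M21's. The values of 1 gene of the other lists are not reported here.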

Additional observations from a re-analysis of the deposited data

How the results depend on the processing

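Over all 15 removals of 1 library, the number of the 44 genes called higher in all tumors ran from 35 to 42. Over all genes that number ran from 1145 to 3395, against 2628 with every library kept. Of the 42 called genes, 33 kept the call without any 1 library. The calls of Chaf1b, Gins4, Pcna, Pole2, Prim2, Rfc1, Rfc2, Rfc3 and Rfc5 were lost in at least 1 removal. Over 1056 values of single genes under other settings, 1028 kept direction and call, 23 lost the call, 5 gained it and 0 changed sign. In a test against a 1.5-fold change 32 of the 44 were called, beside 822 of all 16224 genes called higher. The median log2 fold change of the 44 was 2.01 in limma on TPM plus 1, with or without the filter, and 2.15 with a pseudocount of 0.1, where the median of all genes was 0.43, 0.10 and 0.52 (pseudocount 1, no filter and pseudocount 0.1).

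Leaving out 1 library gave 18 to 41 genes at the antrum, 0 to 41 at the greater curvature, 38 to 41 at the lesser curvature and 0 to 33 at the corpus. The 1.5-fold test gave 19, 10, 34 and 0 at these sites. The number of all genes called at a site was not recorded under these other settings. At the corpus DESeq2 called 33, limma on TPM with no filter 2, the compared groups alone 6, and the fit without greater curvature 2 and corpus 1 called 36. At the greater curvature the compared groups alone gave 0. The number of other replication genes called lower was 0 in the 1.5-fold test and in limma on TPM with a pseudocount of 1, a pseudocount of 0.1 or no filter, and 1 to 3 with 1 library left out. The ratio of Orc1 to Orc2 turned from 0.39 to -0.29 in TPM plus 1. The difference in Pold1 to Pole was -0.19 in TPM plus 1 (adjusted p = 0.288), -0.30 without greater curvature 2 and corpus 1 (adjusted p = 0.0612), and -0.43 to -0.28 with 1 library left out. That of Rrm2 to Rrm1 was 0.38 to 0.49 with 1 library left out. Leaving out libraries and fitting fewer groups leaves fewer degrees of freedom, and the cause of these shifts was not tested.

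With the replicate number as a block, 42 genes were called in all tumors, 40 at the antrum, 36 at the greater curvature, 41 at the lesser curvature, 15 at the corpus and 0 among sites, and no call of a ratio changed. Over all genes, 2896 of 16224 were called higher in all tumors with the block. The numbers were not taken to pair the samples, because the labels do not say that they do. Deviations of same-numbered libraries correlated above 0.1 in 17 of 30 pairs (median 0.17, from -0.57 to 0.69). Those of differently numbered libraries did so in 20 of 60 pairs (median -0.07, from -0.73 to 0.64). Of the 15 samples, 10 correlated best with one of their own number, a hint from the data and not from the design.

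With 3 normals and libraries of 7957165 to 21564972 counts, the precision of each comparison is limited by the number of libraries.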
